A study of Mus musculus with 6 samples.

Results

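The melanocyte genes examined here are Tyr, Tyrp1, Dct, Mlana, Mitf, Kit and Gpnmb and were taken by name. All 7 were found among the 18193 genes with a probe set that names 1 gene, and 14 probe sets measured them. Of these, 3 belonged to Tyr, 3 to Tyrp1, 2 each to Mitf, Kit and Gpnmb, and 1 each to Dct and Mlana.

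The samples were RNA of FACS-sorted skin cells from mice aged 14 days on a mixed C57B6 and CD1 background. The 2KO mice lacked Ezh1 and Ezh2, the catalytic subunits of Polycomb repressive complex 2 that place a silencing methyl mark on histones, and the WT mice served as controls. From each genotype came 1 array of basal epidermis, where the skin surface is renewed, 1 of hair follicle matrix, whose dividing cells build the hair shaft, and 1 of outer root sheath (ORS), the follicle's outer epithelium. The 2KO basal epidermis RNA came from females and the other 5 samples from both sexes. The labels do not say in which cells Ezh1 and Ezh2 were deleted, so it is not known whether any melanocytes in the sorted cells had lost them. They do not give the number of mice per sample or the coat colour of the mice either. CD1 mice are albino through a mutation of Tyr and C57B6 mice are black.

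Melanocytes are neural crest cells that make melanin in organelles called melanosomes and hand them to keratinocytes. In mouse trunk skin they lie mainly in the hair follicle, where those of the hair bulb sit among the matrix cells and pigment the growing shaft. Mitf is the transcription factor that drives their gene programme. Kit is the receptor through which Kit ligand from keratinocytes and fibroblasts supports their migration and survival. Tyr is the rate-limiting enzyme of melanin synthesis, and Tyrp1 and Dct are related enzymes of the same pathway. Mlana and Gpnmb are melanosome membrane proteins, and Gpnmb is also made by macrophages and osteoclasts.

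The promoters of the 3 melanin synthesis enzymes are shown because Mitf is known to bind them at a short sequence, the M-box, which was itself defined on these genes, so finding it here is no independent result. RefSeq start-site windows (GRCm38.p6, 250 bases before to 50 after the start) were at hand for Tyr, Tyrp1, Dct, Mitf, Kit and Gpnmb, 9 windows in all. The search covered TCATGTG on both strands, which contains the 6-base E-box CATGTG. Capitals mark each match, and the windows are printed 5′ to 3′ on the strand of the gene.
Tyr, chr7:87493463-87493762, minus strand: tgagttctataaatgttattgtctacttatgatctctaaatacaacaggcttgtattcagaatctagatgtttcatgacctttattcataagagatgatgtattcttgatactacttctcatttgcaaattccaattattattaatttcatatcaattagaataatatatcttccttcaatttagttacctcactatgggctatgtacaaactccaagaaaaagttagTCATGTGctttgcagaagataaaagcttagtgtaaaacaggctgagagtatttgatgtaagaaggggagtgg
Tyrp1, chr4:80833963-80834262, plus strand: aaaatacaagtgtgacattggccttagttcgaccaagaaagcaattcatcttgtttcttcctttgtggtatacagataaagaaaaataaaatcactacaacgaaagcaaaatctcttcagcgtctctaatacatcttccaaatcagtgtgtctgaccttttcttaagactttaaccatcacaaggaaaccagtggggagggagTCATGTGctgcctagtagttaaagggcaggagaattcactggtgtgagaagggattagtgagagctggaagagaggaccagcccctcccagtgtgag
Dct, chr14:118052197-118052496, minus strand: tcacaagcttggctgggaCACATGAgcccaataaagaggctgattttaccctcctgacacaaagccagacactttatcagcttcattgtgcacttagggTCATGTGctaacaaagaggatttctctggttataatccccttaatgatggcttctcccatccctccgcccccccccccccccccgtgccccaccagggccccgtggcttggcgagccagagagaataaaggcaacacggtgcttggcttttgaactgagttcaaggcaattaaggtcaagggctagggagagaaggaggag
TCATGTG was found in 3.77% of all 32851 windows. The match began at position -22 from the start site in Tyr, at -47 in Tyrp1, and at -151 in Dct, where a second match on the opposite strand began at -232. In all 3 windows a match had G before it and CT after it, a 10-base stretch that occurred in 0.186% of all windows and was chosen after the windows had been seen. Of 12 further pigment cell genes with a window, 4 held TCATGTG, namely Mc1r, Slc24a5, Slc7a11 and Trpm1. The windows of Mitf, Kit and Gpnmb did not hold TCATGTG. These matches describe letters in a window, and binding was not measured here.

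Values are MAS5 signals, the array's summary of brightness for a probe set on a linear scale, in which every array was brought to one total before deposit. A signal of 83.2, the median over all probe sets and arrays, was taken as the floor, and lower signals were raised to it before a ratio was formed. Differences of at least 2-fold are called higher or lower, and a ratio with 1 side below the floor is a bound, written with the words at least. Since every group is a lone array, a difference between 2 arrays has no replicate check and no p-value. An effect shared by the populations, or by both genotypes, can be tested over all 6 arrays with these in place of replicates. That test, given after the single comparisons, does not measure spread between mice. Each probe set has its own brightness, so levels are compared between arrays and not between genes. In bulk RNA of sorted cells, fewer melanocytes and less RNA per melanocyte cannot be told apart.

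The deleted genes were lower on the 2KO arrays, by at least 3.54-fold for Ezh1 and by 2.07-fold (matrix) to 5.93-fold (basal epidermis) for Ezh2. All 8 markers of matrix, among them Msx2, Dlx3, Lef1 and Krt35, were higher in matrix than in ORS in 2KO and in WT. Of all measured genes 5.2% (2KO) and 8.6% (WT) were. On the 2KO matrix array the 7 ORS markers summed to 33794 signal units, against 12351 on the WT matrix array, and the 8 matrix markers summed to 49966 against 63598. Of the matrix markers Msx2 read 2307 in 2KO and 6424 in WT matrix and Dlx3 read 1337 in 2KO and 2951 in WT, while Shh read 3185 in 2KO and 1112 in WT.

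The melanocyte genes did not behave as 1 block. Dct, Kit and Gpnmb were at least 2-fold higher in matrix than in ORS and than in basal epidermis of WT mice, while Tyr, Tyrp1, Mlana and Mitf were within 2-fold. In 2KO mice Gpnmb and Dct were lower in matrix by 3.00-fold and 2.40-fold, and Kit was not.

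**Figure D1:**
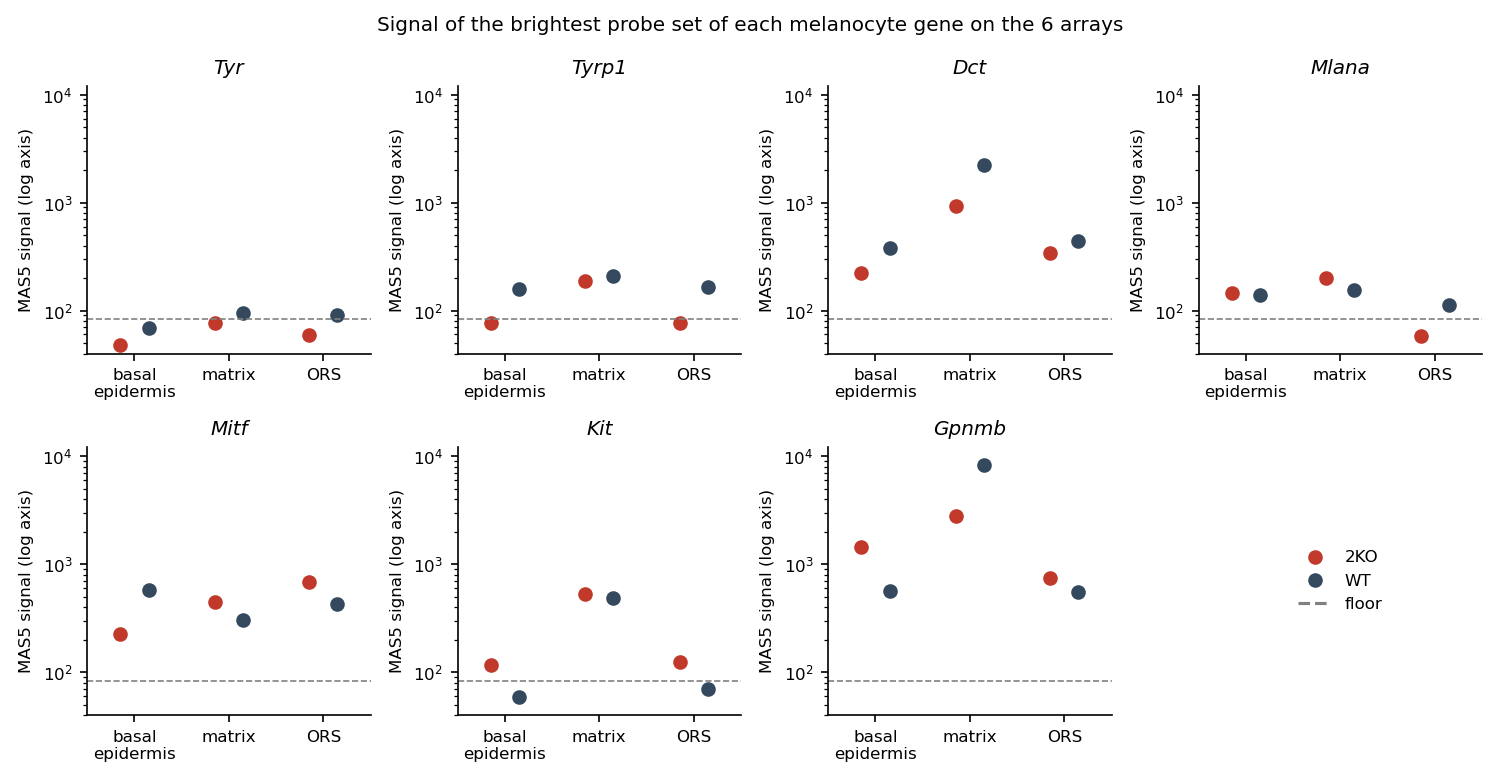
MAS5 signal (log axis) of the brightest probe set of each melanocyte gene, 1 point per array, 2KO left of WT within basal epidermis, matrix and ORS; the dashed line is the floor of 83.2. Gpnmb and Dct peak at 8293 and 2245 in WT matrix, Kit reads 525 and 489 in 2KO and WT matrix and at most 124 elsewhere, and Tyr stays close to the floor.

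Among the enzymes, Dct was the 1 called in matrix between genotypes. Dct, the dopachrome tautomerase of the eumelanin branch, read 936 in 2KO and 2245 in WT matrix, 225 in 2KO and 377 in WT basal epidermis, and 342 in 2KO and 445 in WT ORS. Both matrix arrays stood above the other 4, and 2KO was below WT in each of the 3 populations. The share of all genes lower in all 3 pairs was not counted. In matrix Dct was 2.40-fold lower in 2KO, rank 84 from the lowest of 11661 measured genes. In basal epidermis and ORS it was 1.68-fold and 1.30-fold lower, short of the threshold. Matrix exceeded ORS by 2.74-fold in 2KO and by 5.05-fold in WT, and basal epidermis by 4.16-fold in 2KO and 5.96-fold in WT.

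Tyr was barely measured. Its brightest probe set read 76.0 in 2KO and 95.6 in WT matrix, 48.4 in 2KO and 68.3 in WT basal epidermis, and 59.1 in 2KO and 91.1 in WT ORS. Only WT matrix and WT ORS reached the floor, and the other 2 Tyr probe sets lay below it on all 6 arrays. The values give a bound of at least 1.15-fold lower in 2KO matrix and at least 1.10-fold lower in 2KO ORS, and nothing in basal epidermis, so a difference in Tyr was not detectable at this signal.

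Tyrp1, an enzyme that stabilises tyrosinase and acts late in eumelanin synthesis, read 187 in 2KO and 209 in WT matrix. It read 76.1 in 2KO and 159 in WT basal epidermis, and 76.0 in 2KO and 167 in WT ORS. The 2KO arrays of basal epidermis and ORS were below the floor and the other 4 arrays above it. The ORS difference was called at at least 2.00-fold lower in 2KO, on the edge of the threshold, and the basal epidermis difference, at least 1.91-fold lower, fell just outside it. The other pair of Tyrp1 probe sets gave at least 2.15-fold and at least 1.23-fold lower in 2KO basal epidermis, and 1.46-fold and at least 1.04-fold lower in 2KO ORS, so the ORS call rested on 1 of 3 probe sets. In matrix the brightest probe set was 1.12-fold lower in 2KO and another 1.12-fold higher, and the third read 80.5 in 2KO, below the floor, and 93.0 in WT. Among matrix markers in ORS, 1 of 8 measured was higher in 2KO (8.16% of all genes) and 2 were lower (4.75%). In basal epidermis 1 of 7 measured was higher (6.59%) and 2 were lower (4.09%). The hair keratin gene Krt35 read 90.8 in 2KO and 645 in WT ORS and 36.5 in 2KO and 892 in WT basal epidermis. The inner root sheath keratin gene Krt25 read 135 in 2KO and 1052 in WT ORS and 84.5 in 2KO and 1171 in WT basal epidermis. Lef1 went the other way, at 803 in 2KO and 159 in WT ORS and 396 in 2KO and 126 in WT basal epidermis. The part of these marker differences in the lower Tyrp1 and Dct signals of 2KO ORS and basal epidermis was not tested.

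Mlana, also called MART-1, has 1 probe set. It read 198 in 2KO and 153 in WT matrix, 146 in 2KO and 140 in WT basal epidermis, and 58.5 in 2KO and 111 in WT ORS. The 2KO ORS array was the 1 array below the floor, and no difference between genotypes reached 2-fold. In 2KO the matrix signal was at least 2.38-fold that of ORS, against 1.38-fold in WT.

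Gpnmb, a type I membrane glycoprotein related to the melanosome fibril protein Pmel, showed the widest span of the 7. It read 2762 in 2KO and 8293 in WT matrix, 1424 in 2KO and 559 in WT basal epidermis, and 736 in 2KO and 555 in WT ORS. Both matrix arrays stood highest. In matrix Gpnmb was 3.00-fold lower in 2KO, rank 34 from the lowest of 11661 measured genes, whereas in basal epidermis it was 2.55-fold higher, rank 444 from the highest of 11527. In ORS it was 1.33-fold higher. Of 7 basal epidermis markers, 4 were called higher on the 2KO matrix array (9.03% of all genes) and 0 lower (1.62%). Their summed signal was 47811 in 2KO and 25927 in WT matrix. Krt14 read 13804 in 2KO and 4805 in WT matrix, while Trp63 went the other way, at 5325 in 2KO and 6411 in WT. The part of the basal epidermis markers, of the ORS markers and of the lower Msx2 and Dlx3 in the Gpnmb and Dct values of that array was not tested.

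The second Gpnmb probe set read 68.7 in 2KO and 400 in WT matrix, at least 4.81-fold lower in 2KO. It lay below the floor on the other 4 arrays, so that the higher Gpnmb of 2KO basal epidermis was seen with 1 probe set. The excess of matrix over ORS was 3.75-fold in 2KO and 14.9-fold in WT, and that over basal epidermis 1.94-fold in 2KO and 14.8-fold in WT. The log2 excess over basal epidermis was thus smaller in 2KO by 2.94, a difference that was not tested, and 2KO basal epidermis lay closer to 2KO matrix for this gene than WT basal epidermis did to WT matrix.

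Kit, the receptor of Kit ligand, read 525 in 2KO and 489 in WT matrix, 116 in 2KO and 58.8 in WT basal epidermis, and 124 in 2KO and 70.3 in WT ORS. The matrix arrays were the highest and lay close together, 1.07-fold apart. Outside matrix the WT arrays were below the floor and the 2KO arrays above it, with log2 ratios of at least 0.48 (basal epidermis) and 0.58 (ORS), both within the threshold. Matrix exceeded ORS by 4.22-fold in 2KO and at least 5.87-fold in WT, and basal epidermis by 4.52-fold in 2KO and at least 5.87-fold in WT. The second Kit probe set was below the floor on all 6 arrays. The Kit excess in matrix was within 2-fold in both genotypes with a floor at the 75th percentile (log2 ratios of 0.18 in 2KO and 0.07 in WT), and averaging both probe sets left 1.17 in 2KO and 0.97 in WT.

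Mitf had another order of signals than Dct and Gpnmb. The probe set that measured it read 449 in 2KO and 301 in WT matrix, 225 in 2KO and 572 in WT basal epidermis, and 681 in 2KO and 423 in WT ORS. In basal epidermis Mitf was 2.54-fold lower in 2KO, rank 249 from the lowest of 11527. With a floor at the 75th percentile this log2 ratio was -0.30, within the threshold. In matrix and ORS it was 1.49-fold and 1.61-fold higher, within the threshold. WT matrix, where Dct and Gpnmb peaked, had a lower Mitf signal than both other WT arrays. RefSeq gives 3 start sites for Mitf, which is made in many cell types from different promoters, and the array's probe sets were not assigned to them here. The second Mitf probe set was below the floor on all arrays.

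**Figure D2:**
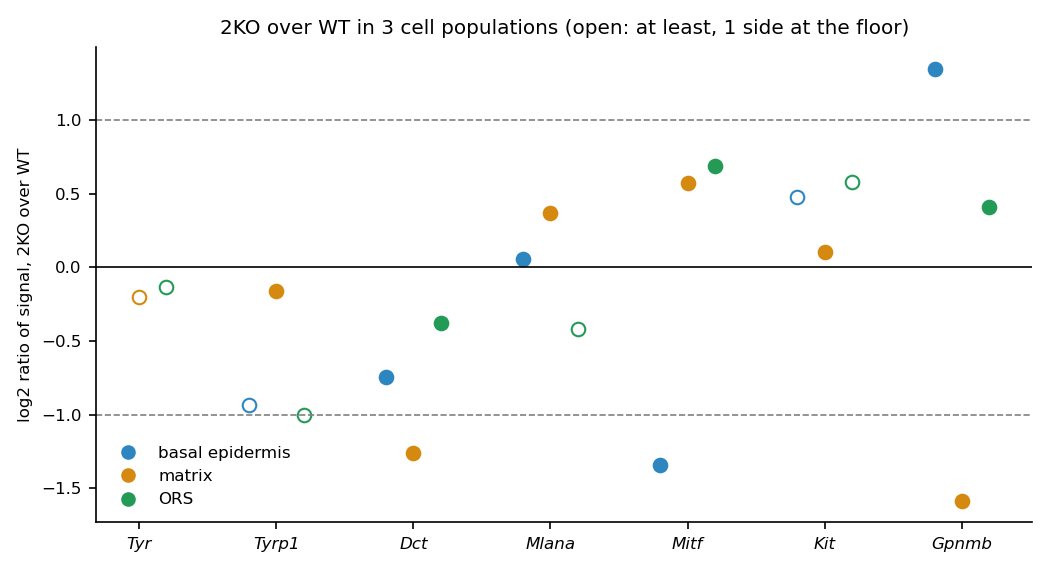
Log2 ratio of signal, 2KO over WT, for each melanocyte gene in basal epidermis, matrix and ORS; open circles are ratios with 1 side at the floor (at least), dashed lines mark 2-fold, and Tyr in basal epidermis is not drawn because both signals were below the floor. Gpnmb lies at 1.35 in basal epidermis and at -1.59 in matrix, Dct at -1.26 in matrix and Mitf at -1.34 in basal epidermis.

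Counted over the 7 genes, 2 were lower and 0 higher in 2KO matrix (Gpnmb and Dct), where 1.62% of measured genes were called lower and 9.03% higher. The median log2 ratio of the 7 was -0.16, against 0.03 over all measured genes. In basal epidermis 6 genes were measured, with 1 higher (Gpnmb) and 1 lower (Mitf), where 6.59% of genes were called higher and 4.09% lower, and medians were -0.34 for the 6 and 0.04 for all genes. In ORS 0 of 7 were higher and 1 was lower (Tyrp1), against 8.16% and 4.75% of genes, with medians of -0.13 and 0.01. A count of 1 in 6 or 7 genes is no result about the group at these shares.

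The ratios move with the scaling of the arrays. Scaling to the spiked hybridisation controls moved the median log2 ratio of all genes in matrix to -0.64, and scaling to a common median moved it to -0.24. Under the first of these Gpnmb and Dct in matrix were at -2.28 and -1.96, further below 0 than the median gene. The small positive log2 ratios of Mlana, Mitf and Kit in matrix became negative there (-0.32, -0.12 and -0.59), and so did that of Mlana in basal epidermis after scaling to a common median (-0.05). Directions of these genes are therefore given as values only.

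Between populations, 5 of the 6 genes measured were higher in matrix than in ORS of 2KO mice (Tyrp1, Dct, Mlana, Kit and Gpnmb), and 3 of 7 in WT mice (Dct, Kit and Gpnmb). The shares over all measured genes were 5.2% in 2KO and 8.6% in WT. Against basal epidermis, 3 of 6 were higher in 2KO matrix (Tyrp1, Dct and Kit) and 3 of 7 in WT matrix (Dct, Kit and Gpnmb), where 6.9% and 11.3% of all genes were. Of the genes measured (6 in 2KO and 7 in WT), none was at least 2-fold lower in matrix. Over all measured genes 8.61% (2KO) and 13.9% (WT) were lower than in ORS, and 7.29% (2KO) and 13.8% (WT) lower than in basal epidermis. A gene below the floor on the other array was measured only through matrix and could not be called lower. That held for Tyrp1 in both 2KO comparisons, Mlana against 2KO ORS, Kit in both WT comparisons and Tyr against WT basal epidermis. The absence of lower calls is thus no result for these genes. Both comparisons of a genotype share its matrix array. For Tyrp1 and Mlana in 2KO the ratio to ORS is a lower bound, since both lay under the floor in 2KO ORS. In WT the ratio of matrix to ORS ranked Gpnmb 25th and Dct 126th of 11433 measured genes, and Kit, below the floor in ORS, has no exact rank.

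Effects shared across arrays were tested with limma on log2 floored signals, with genotype and population as terms over all 6 arrays and 12651 genes above the floor on at least 1 array. The fit has 2 residual degrees of freedom and takes differences between populations in the genotype effect as error. Populations thus stand in for replicates of a genotype, and the labels do not say whether they came from the same mice. Its SE and p-values therefore do not measure spread between mice. In basal epidermis the 2KO RNA came from females and the WT RNA from both sexes, so the genotype term also carries this difference. For 2KO over WT 0 genes were called higher or lower at an adjusted p of 0.05 (0% of genes), with 1896 below 0.05 before adjustment, and Ezh1, a deleted gene, had an adjusted p of 0.0849. Dct had a log2 ratio of -0.80 ± 0.22 (SE, limma adjusted p = 0.26), lower on the 2KO array of all 3 pairs, and Tyrp1 had -0.70 ± 0.23 (limma adjusted p = 0.294). The other 5 melanocyte genes had limma adjusted p-values of 0.367 (Kit) to 0.996 (Mlana). Gpnmb, with opposite differences in basal epidermis and matrix, had 0.06 ± 0.61.

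Between populations, over both genotypes, Kit was higher in matrix than in basal epidermis by a log2 ratio of 2.37 ± 0.20 (SE, limma adjusted p = 0.0471), where 0.569% of genes were called higher and 0.585% lower. Dct had 2.32 ± 0.27 (limma adjusted p = 0.0542) and Gpnmb 2.42 ± 0.75 (limma adjusted p = 0.15). The Kit signal of WT basal epidermis was at the floor, and the call was lost under 4 of 8 alternatives. Against ORS 0 genes were called in either direction (0%), with 3240 below 0.05 before adjustment, and Kit had 2.31 ± 0.20 (limma adjusted p = 0.0797) and Dct 1.89 ± 0.27 (limma adjusted p = 0.0871).

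**Figure D3:**
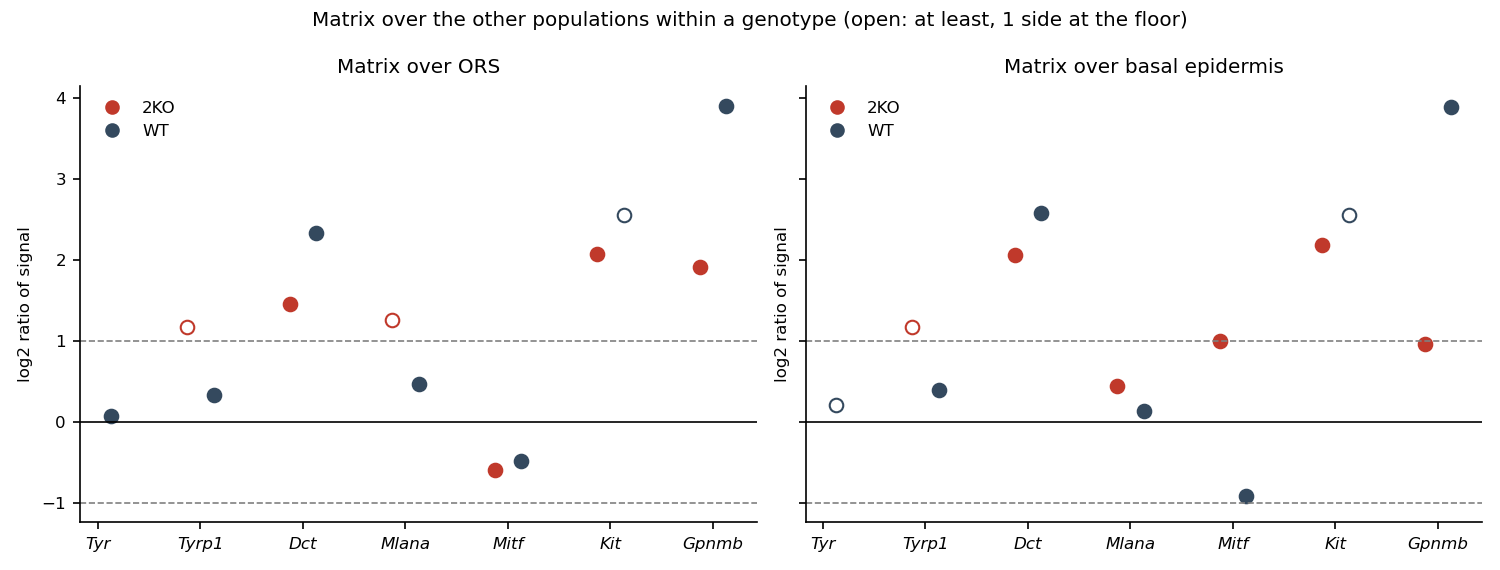
Log2 ratio of signal of matrix over ORS (left) and over basal epidermis (right) for each melanocyte gene, 2KO left of WT; open circles are lower bounds with 1 side at the floor and dashed lines mark 2-fold. The Gpnmb ratios to ORS and basal epidermis are 1.91 and 0.96 in 2KO against 3.90 and 3.89 in WT, and Mitf is 1.99-fold higher than basal epidermis in 2KO matrix and 1.90-fold lower in WT matrix.

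Cells other than melanocytes can carry Kit and Gpnmb, and their markers were set beside them. Mast cells also bear Kit. Of 7 mast cell markers matched, 4 were above the floor in 2KO matrix and 0 in WT matrix, and the list summed to 1066 signal units in 2KO matrix against 178 in WT matrix. In basal epidermis the sums were 847 in 2KO and 283 in WT, and in ORS 270 in 2KO and 208 in WT. The histidine decarboxylase gene Hdc read 366 in 2KO and 19.5 in WT matrix, and the mast cell carboxypeptidase gene Cpa3 read 299 in 2KO and 57.7 in WT matrix. In WT matrix, where Kit read 489, all 7 mast cell markers were below the floor. Whether mast cells contributed to Kit in 2KO matrix and 2KO basal epidermis was not tested.

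The 12 macrophage and dendritic cell markers, which bear on Gpnmb, summed to 5108 in 2KO and 1292 in WT matrix, 5769 in 2KO and 6574 in WT basal epidermis, and 5265 in 2KO and 3636 in WT ORS. The antigen presentation gene H2-Eb1 made up most of the sum on every 2KO array. It read 2873 in 2KO and 315 in WT matrix, 3627 in 2KO and 2232 in WT basal epidermis, and 3517 in 2KO and 1148 in WT ORS. In ORS 1 of 9 measured markers was higher (8.16% of all genes) and 3 were lower (4.75%), with a median log2 ratio of -0.57. In matrix 9 of 12 were above the floor in 2KO and 6 of 12 in WT. Ptprc and Tyrobp were below it in WT matrix only, and C1qa was below it in both genotypes. C1qb went the other way, at 70.7 in 2KO matrix, below the floor, and 85.2 in WT matrix. Of 10 measured in matrix, 4 were higher in 2KO (9.03% of all genes) and 0 lower (1.62%). In 2KO basal epidermis 4 of 9 measured markers were at least 2-fold lower (4.09% of all genes) and 0 higher (6.59%). The part of macrophages and dendritic cells in the Gpnmb values was not tested. Of 5 Schwann cell markers, which share the neural crest origin, Erbb3 was above the floor on all 6 arrays and is also an epithelial gene, and S100b, Foxd3 and Cdh19 were below it in both matrix samples. Mbp, a myelin gene, read 206 in 2KO and 50.4 in WT matrix, at least 2.47-fold higher.

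**Figure D4:**
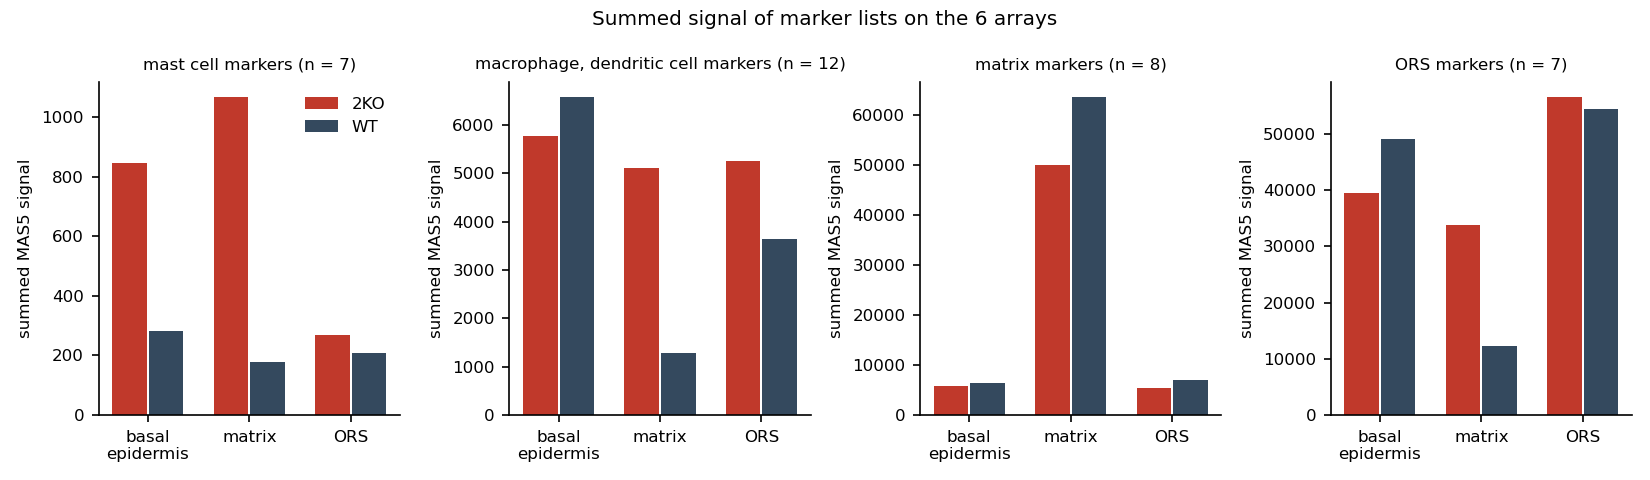
Summed MAS5 signal of 4 marker lists on each array, 2KO left of WT; n is the number of genes in the list. Mast cell markers sum to 1066 in 2KO matrix against 178 in WT matrix, matrix markers to 49966 against 63598, and ORS markers to 33794 against 12351. Macrophage and dendritic cell markers sum to 5108 in 2KO matrix against 1292 in WT matrix, of which H2-Eb1 is 2873 against 315.

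Of 18 further pigment cell genes, 17 were matched and 14 were above the floor on at least 1 array. Gpr143, Mc1r and Mlph were below it throughout. In 2KO matrix 1 of 13 measured was higher, Pax3 (9.03% of all genes), and 1 lower, Slc7a11 (1.62%). The median log2 ratio was -0.10 against 0.03 over all genes. In basal epidermis Pax3 was higher (6.59% of all genes) and Rab27a lower (4.09%) among 10 measured (median -0.22 against 0.04). In ORS Pax3 was higher (8.16%) and Rab32 lower (4.75%) among 12 (median -0.13 against 0.01). Counts of 1 in 10 to 13 genes are no result about the list at these shares.

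Pmel, which forms the melanosome's fibrils, did not share the matrix peak of Gpnmb and Dct. It read 279 in 2KO and 258 in WT matrix, 158 in 2KO and 189 in WT basal epidermis, and 222 in 2KO and 334 in WT ORS, all within 2-fold between genotypes. Oca2 and Slc45a2, transporters of the melanosome, passed the floor only in WT matrix, at 89.2 and 91.7. Trpm1, the ion channel gene that hosts a melanocyte microRNA, read 120 in 2KO and 128 in WT matrix, 72.5 in 2KO and 115 in WT basal epidermis, and 59.1 in 2KO and 84.3 in WT ORS. Sox10, the neural crest factor that activates Mitf, read 113 in 2KO and 51.2 in WT matrix and 119 in 2KO and 180 in WT ORS. In basal epidermis it was below the floor in both genotypes (58.2 in 2KO and 68.5 in WT). The other 2 Sox10 probe sets were below the floor on all 6 arrays. Ednrb, the endothelin receptor of the lineage, lay between 69.7 and 158 on the 6 arrays.

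Pax3, a neural crest factor upstream of Mitf, was called higher in 2KO in all 3 populations. Its brightest probe set read 321 in 2KO and 46.9 in WT matrix, 238 in 2KO and 30.1 in WT basal epidermis, and 287 in 2KO and 12.0 in WT ORS. The 2KO and WT arrays did not overlap, and the bounds were at least 3.85-fold, 2.86-fold and 3.45-fold higher. All 3 Pax3 probe sets were above the floor on every 2KO array and below it on every WT array. The share of all genes split in this way was not counted. In the fit over all 6 arrays Pax3 had a log2 ratio of 1.75 ± 0.16 (SE, limma adjusted p = 0.0854), which does not pass 0.05. All 3 WT values were raised to the floor there, so the ratio is a lower bound and the SE leaves out variation among WT arrays. Of the 7 melanocyte genes, only Gpnmb was called higher in 2KO, in basal epidermis. Mitf was 1.49-fold higher in 2KO matrix, 1.61-fold higher in 2KO ORS and 2.54-fold lower in 2KO basal epidermis. A relation of these values to Pax3 was not tested.

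The cystine transporter Slc7a11, which feeds the yellow pheomelanin branch, read 43.9 in 2KO and 385 in WT matrix, at least 4.63-fold lower. Its second probe set read 84.6 in 2KO and 176 in WT matrix. Rab27a, which tethers melanosomes to actin together with Myo5a, read 200 in 2KO and 782 in WT basal epidermis, 3.90-fold lower. Its other 3 probe sets were below the floor there in 2KO, and 1 of them passed it in WT at 89.6. Myo5a read 1466 in 2KO and 2256 in WT matrix and, in WT, was 2.77-fold higher in matrix than in ORS and 2.28-fold higher than in basal epidermis. Keratinocytes use several of these trafficking genes, and Rab38 and Mreg were above the floor on all 6 arrays.

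Genes of melanosome trafficking (the HPS, BLOC-1 and AP-3 complexes) are used by every cell with lysosomes. Of 17 listed, 16 were matched and 15 measured in each population. In 2KO matrix 0 were higher (9.03% of all genes) and 0 lower (1.62%), with a median of -0.03. In 2KO basal epidermis 1 was higher, Bloc1s2 (2.57-fold, 6.59% of all genes), and 0 lower (4.09%), with a median of -0.16. In 2KO ORS 0 were higher (8.16%) and 1, Vps33a, was lower (2.07-fold, 4.75% of all genes), with a median of -0.08. A count of 1 in 15 genes is no result about the list at these shares. Of the Mitf relatives Tfe3 and Tfeb were within 2-fold between genotypes in all 3 populations, and Tfec was below the floor on all arrays.

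Among signals that reach melanocytes from their neighbours, Kitl was called between genotypes outside matrix. Kitl, the ligand of Kit, read 5277 in 2KO and 10468 in WT matrix, 4727 in 2KO and 1547 in WT basal epidermis, and 3600 in 2KO and 1797 in WT ORS. In WT the matrix array stood highest, 5.83-fold above ORS and 6.77-fold above basal epidermis, whereas in 2KO the 3 arrays lay within 1.47-fold of each other. Kitl was 3.06-fold higher in 2KO basal epidermis, 2.00-fold higher in 2KO ORS and 1.98-fold lower in 2KO matrix. All 4 Kitl probe sets were higher in 2KO basal epidermis by at least 2.09-fold. In matrix all 4 were lower in 2KO, by 1.68-fold to 3.51-fold, and 1 of them passed the threshold. In ORS 3 of 4 were at least 2-fold higher. Fibroblasts also make Kitl, and 8 fibroblast markers summed to 36884 in 2KO and 20105 in WT matrix, 13595 in 2KO and 16710 in WT basal epidermis, and 23376 in 2KO and 16943 in WT ORS. In matrix 6 of 7 measured were called higher (9.03% of all genes) and 0 lower (1.62%). In basal epidermis 1 of 7 was called higher (6.59%) and 0 lower (4.09%), and in ORS 1 of 8 higher (8.16%) and 0 lower (4.75%). In ORS Dcn read 4254 in 2KO and 928 in WT, while Col3a1 read 5959 in 2KO and 5993 in WT. The part of fibroblasts in the Kitl values was not tested.

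**Figure D5:**
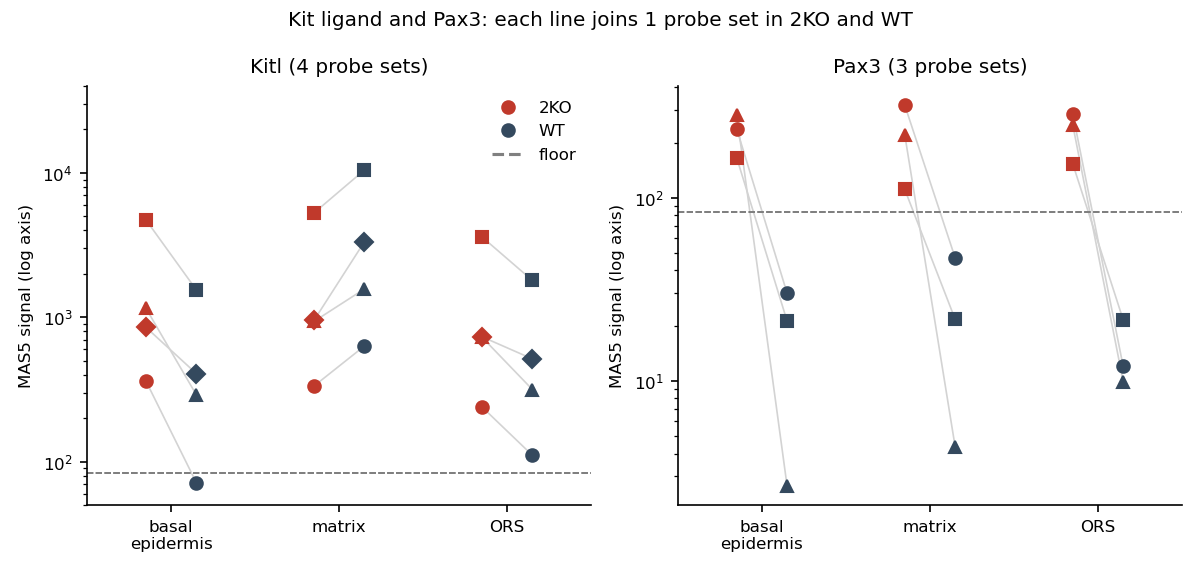
MAS5 signal (log axis) of the 4 Kitl and 3 Pax3 probe sets, 2KO left of WT in each population, a line joining the values of 1 probe set; the dashed line is the floor. Kitl is higher in 2KO basal epidermis and ORS and lower in 2KO matrix for each probe set, and Pax3 is above the floor on the 2KO arrays and below it on the WT arrays.

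Of the 9 signal genes, 3 of 7 measured were higher in 2KO matrix, the endothelin genes Edn1 (3.33-fold) and Edn2 (2.82-fold) and the endothelin-converting enzyme Ece1 (2.55-fold), where 9.03% of all genes were called higher, and 0 were lower (1.62%), with a median of 0.33. In basal epidermis 1 of 5 measured was higher, Kitl (6.59% of all genes), and 0 lower (4.09%), with a median of 0.02. In ORS Kitl was higher (8.16% of all genes) and Edn1 lower (2.48-fold, 4.75% of all genes) among 7 (median 0.22). Edn1, a growth signal for melanocytes, read 339 in 2KO and 102 in WT matrix and 249 in 2KO and 617 in WT ORS. Pomc, the precursor of melanocyte-stimulating hormone, and the agouti gene a, its antagonist, stayed at or below 133 on the 6 arrays, and Hgf and Fgf2 were below the floor.

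The genes most like the melanocyte group were sought by the correlation of log2 signal over the 6 arrays with the mean of Tyr, Tyrp1, Dct and Mlana. That mean follows Dct (Pearson r = 0.954) and Tyrp1 (0.909) more closely than Tyr (0.633) or Mlana (0.653), and Gpnmb and Kit had 0.768 and 0.798 while Mitf had -0.194. The 8 genes with the highest r, between 0.986 and 0.993, were Exo5, Crlf3, Eif2b4, Ppat, Ccne2, Polr3a, Zswim1 and Trub2. Ccne2, a cyclin of DNA replication, read 596 in 2KO and 822 in WT matrix, 240 in 2KO and 376 in WT basal epidermis, and 227 in 2KO and 313 in WT ORS. None of the 8 is in the lists of pigment cell genes. Of 5998 genes that spanned at least 2-fold over the arrays, 355 had an r of at least 0.9, so 6 arrays that share 3 populations do not single out pigment genes. Between members, Kit and Gpnmb (0.908), Dct and Kit (0.841) and Dct and Gpnmb (0.828) had the highest r, and Mitf had none above 0 with the other 6 and the lowest, -0.53, with Gpnmb.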

How the data were processed

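RNA was measured on 6 Affymetrix arrays, 1 per group. The authors deposited linear intensities (MAS5 signals). MAS5 is credited to the submitters' processing notes, without a version, and image background was subtracted, per the labels of the series. The deposited signals have a 2% trimmed mean of 500 on every array, so a shift of most genes one way cannot be seen, and array medians ran from 72.6 to 99.0. The number of arrays limits the precision.

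Of 45101 probe sets, 64 are controls. The platform annotation names 1 gene for 34958, several for 932 and none for 9211 (controls included). The probe set brightest on average (log2 scale) stood for its gene. Signals were floored at 83.2, the median of non-control probe sets. On each array 47.7% to 53.1% of probe sets exceeded it. Promoter windows come from RefSeq, GRCm38.p6. A fit of genotype and population over all arrays (limma 3.58.1, R 4.3.3, Benjamini-Hochberg adjustment) was added after the data were seen. Calling and fit were tested on simulated data. Python 3.11.15 and pandas 2.3.3 were used.

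The members and lists were chosen with earlier results of these data known. All members were named, as was any listed pathway gene above the floor on 1 array, and up to 4 genes of each marker list. The 8 genes with the highest correlation with the mean of Tyr, Tyrp1, Dct and Mlana were named, passing over 1 clone name. The alternatives covered scaling, floor, threshold and choice of probe sets. Further probe sets of Kitl, Pax3, Slc7a11, Rab27a and Sox10, and marker genes named as low or discordant, were chosen after their values were seen.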

Additional observations from a re-analysis of the deposited data

Results flagged for a closer look

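Gpnmb differed in opposite directions between 2KO and WT in 2 populations. Its log2 ratio of 2KO over WT was 1.35 in basal epidermis (1424 against 559 signal units) and -1.59 in matrix (2762 against 8293). Both passed 2-fold, with 1 array on each side, and the difference between the populations was not tested. No group had enough arrays to look for a sample far from the others.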

How the results depend on the processing

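Each group has 1 array, so no replicate could be left out. The labels give no replicate numbers, and the limma fit over all arrays, chosen after seeing the data, sets the genotypes against each other within each population. No called ratio changed sign. Over 333 ratios recomputed for the 7 genes, 303 kept their call and moved by less than 1.5-fold, and 30 did not. The Gpnmb and Dct calls in 2KO matrix were the same under all 8 alternatives to scaling, floor and probe sets. The number of genes lower in 2KO basal epidermis (1) became 2 after scaling to a common median, after quantile normalization and with the 25th-percentile floor, when Tyrp1 joined Mitf. It became 0 with the 75th-percentile floor, with the mean over all probe sets of a gene and at 3-fold. The Tyrp1 call in 2KO ORS (1) was lost (0) after quantile normalization, with the 75th-percentile floor, with no floor and a pseudocount of 16, with the mean over probe sets and at 3-fold. At 3-fold, 0 genes were higher in 2KO basal epidermis and 1, Gpnmb, was lower in 2KO matrix. The 5 genes higher in 2KO matrix than 2KO ORS became 3 after scaling to the hybridisation controls, 2 with the 75th-percentile floor and 2 at 3-fold. The 3 higher in 2KO matrix than 2KO basal epidermis became 1 with the 75th-percentile floor. The cause was not tested. In the limma fit the 1 member called between matrix and basal epidermis (Kit) became 0 with hybridisation-control scaling, either other floor or the mean over probe sets, and 2 with the pseudocount. No member was called between genotypes or between matrix and ORS under any of 8 alternatives. Genes called between genotypes (0) became 1 with a common median, 57 with the 25th-percentile floor and 146 with the pseudocount. Those called between matrix and basal epidermis (146) became 0, 51 and 3 with the 25th- and 75th-percentile floors and the mean over probe sets. Those between matrix and ORS (0) reached at most 5. Leaving out probe sets with the suffixes _x_at and _s_at changed none of the counts of the 7 genes.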
